A study of Homo sapiens with 12 samples.

Results

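The comparison described here asks whether chidamide acts on the same genes, and by the same amount, in Jurkat and Molt-4, cell lines of T-cell acute lymphoblastic leukaemia (T-ALL). It is the treated minus untreated change in Molt-4 minus that change in Jurkat, computed for each gene, and it draws on 12 of the 12 libraries of the series. The libraries are untreated Jurkat, Jurkat with 2 µM chidamide, untreated Molt-4 and Molt-4 with 2 µM chidamide, with 3 libraries in each group. Their names carry the letters J and M, read here as Jurkat and Molt-4 because the growth protocol names no other line. Both lines were grown in RPMI medium with fetal bovine serum, and total RNA was sequenced from TruSeq libraries. Each treated library carries its own time label, 48, 49 or 50 h in the order of the replicate numbers, while the treatment protocol gives 48 h for all; an effect of such hours, if they are real, cannot be told apart from the replicate. Whether the libraries of a group are separate cultures is not labelled, and the p-values then reflect a spread that may be technical. Jurkat and Molt-4 are established lines, each grown from the leukaemic cells of a single patient, so a difference between their responses is one between 2 cultures, not between kinds of leukaemia.

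Chidamide is a benzamide inhibitor of class I histone deacetylases and HDAC10, enzymes that remove acetyl groups from histones and other proteins. Loss of this activity raises acetylation at many loci and can both raise and lower transcripts, and what a cell does with it depends on the factors it already carries. T-ALL cells resemble thymocytes halted during development. They often depend on NOTCH1, a surface receptor whose cleaved intracellular part binds RBPJ on DNA and switches on MYC, HES and HEY genes, DTX1, PTCRA and IL7R. Transcription factors such as TAL1, LMO1 and LMO2 are switched on in subsets of these leukaemias.

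Values are library-scaled fragments per kilobase of transcript (FPKM) as deposited, tested as log2(FPKM + 1). A difference is called higher when the Molt-4 response is the more positive and lower when it is the more negative, at an adjusted p under 0.05 (limma, two-sided, Benjamini-Hochberg over all genes tested). Of 25146 genes, 13840 were tested, those that reached an FPKM of 1 in 3 or more libraries. All fold sizes below are on this log2 scale, which understates changes of genes with an FPKM near or under 1. A gene near 0 in a line can show a rise there but almost no fall. Of the genes tested, 571 (4.13%) reached the filter only with the treated Molt-4 libraries, and 353 of these were called higher. Genes that reached it only with the libraries of any other group, treated or untreated, were not counted.

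The libraries held 11643 to 13228 genes at an FPKM of at least 1, and within a group their log2 values correlated at r = 0.989 to 0.995. Untreated Jurkat replicate 3 stood apart: the standard deviation of its residuals over genes was 0.21, against 0.14 to 0.16 in the other 11. In untreated Molt-4 replicate 3 the 2 genes of 7SL RNA, part of the signal recognition particle, took 10.1% of the summed FPKM, against 2.25% to 5.35% elsewhere. The 9 T-lymphoblast markers with a row in the table were expressed in both lines, with CD3D between 321 and 819, LCK between 119 and 509 and CD2 between 9.45 and 62.6 FPKM over the 12 libraries.

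The 6 libraries labelled Molt-4 also held erythroid transcripts at high levels, before treatment as well as after it. HBG2, a fetal globin, had an FPKM of 5709, 6003 and 6289 in untreated and 13887, 14018 and 14319 in treated Molt-4 libraries, and 0 to 0.18 in all 6 Jurkat libraries. GATA1, the erythroid master regulator, had 89.1, 86.03 and 85.5 in untreated and 151, 159 and 163 in treated Molt-4, with no Jurkat value above 0.50, and KLF1, an erythroid activator, had 94.2, 86.7 and 85.5 in untreated and 96.2, 97.8 and 97.8 in treated Molt-4. Of 39 erythroid and megakaryocyte genes with a row, 26 stayed under 1 in every Jurkat library but 6 in every Molt-4 library. Their summed FPKM was 11500 to 12190 in untreated and 26880 to 27570 in treated Molt-4, against 525 to 581 and 309 to 399 in Jurkat. Bulk RNA does not show whether these transcripts and the T-cell transcripts come from the same cells, and a change in the number of cells of a type cannot be told apart from a change in RNA per cell. Because every Molt-4 library shows them, no difference of responses could be given without them, and their part in the results below was not tested. T lymphoblasts are not known for these transcripts. Whether the culture is Molt-4, another line or a mixture was not tested, and Molt-4 means below the libraries so labelled.

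The lines' responses differed at 4416 of 13840 genes (31.9%), with 2745 differences higher (19.8%) and 1671 lower (12.1%). The median difference over all genes was 0.04 and the median standard error 0.15. The share of higher calls depended on the scaling: 62.2% of the calls were higher with the deposited values, 45.9% after quantile normalization and 50.9% with equal totals once 7SL RNA was removed. Quantile normalization moved the median difference to -0.07, and the other scalings moved it by less. Where leaving out a single library moved a list count by much, the count without it is given beside the list. A difference of at least 1 was called at 1202 genes (8.68%), 928 higher and 274 lower. Of the 928, 305 (32.9%) had mean FPKM under 1 in both Jurkat groups, against 8.66% of all genes tested.

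Most responses called in both lines had no called difference. The Jurkat response was called at 7786 genes (56.3%) and the Molt-4 response at 8304 (60%), and both at 5650. They had the same direction at 5256 of these, of which 3695 (70.3%) had no called difference, and 2366 (45%) had a 95% interval of the difference within 0.5 of 0. Across the 13840 genes the responses correlated at Pearson's r = 0.64 and Spearman's rho = 0.67, as a description over genes that are not independent replicates, and 75.6% had the same sign. Among the 4416 called differences, 394 (8.92%) joined opposite called responses, 1561 (35.3%) the same direction at unequal size, and 2401 (54.4%) a response called in 1 line.

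**Figure D1:**
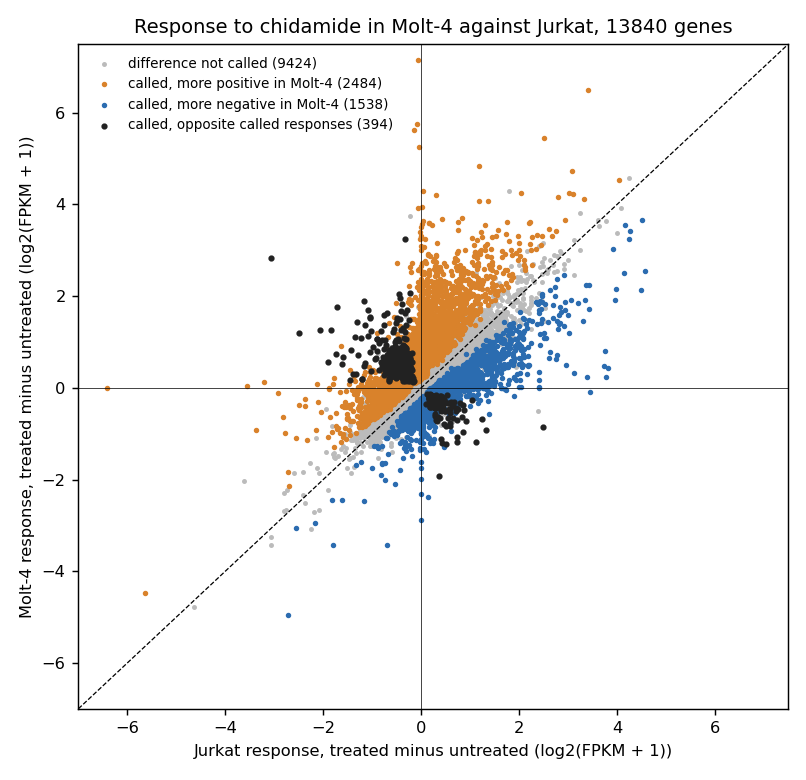
Response to chidamide of each of the 13840 genes in Molt-4 (vertical axis) against Jurkat (horizontal axis), both as treated minus untreated means of log2(FPKM + 1) over 3 libraries a group; the dashed line marks equal responses. Orange and blue points are genes with a called difference, black points are the 394 genes with opposite called responses, and a band of orange points rises along the vertical axis where Jurkat hardly moved.

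Genes that rose in Molt-4 and fell in Jurkat numbered 261, which is 1.89% of the genes tested. SMAD6, an inhibitor of BMP signalling, had an FPKM of 19.9, 23.1 and 20.6 in untreated and 7.25, 5.07 and 5.09 in treated Jurkat, and 1.69, 1.89 and 1.46 in untreated and 7.73, 8.02 and 8.37 in treated Molt-4. The treated and untreated ranges did not overlap in either line, as was so at 46.1% of the genes tested. Treatment left the lines with levels of 5.07 to 7.25 and 7.73 to 8.37 where untreated Jurkat had been far above Molt-4. The difference of responses was 3.48 ± 0.17 (SE; adjusted p = 6.6e-08). CTSG, the granule protease cathepsin G, had 207, 220.4 and 425 in untreated and 61.8, 63.6 and 64.2 in treated Jurkat, and 11.7, 12.2 and 14.1 in untreated and 31.8, 30.7 and 32.6 in treated Molt-4. It fell in Jurkat and rose in Molt-4, with replicate 3 of untreated Jurkat well above the other 2 (difference 3.33 ± 0.29 SE, adjusted p = 4.7e-06).

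CD79A, a signalling chain of the B-cell receptor that some T-ALL also carry, had 24.6, 27.9 and 29.6 in untreated and 11.2, 11.5 and 12.04 in treated Jurkat, and 2.39, 3.02 and 3.15 in untreated and 12.1, 13.2 and 14.7 in treated Molt-4, which again brought the treated lines close together, Molt-4 slightly the higher. Its difference was 3.07 ± 0.15 (SE; adjusted p = 4.7e-08). DBNDD2 showed the same convergence, with 16.2, 14.3 and 17.3 in treated Jurkat and 15.8, 14.6 and 16.3 in treated Molt-4 after 58.2, 58.8 and 60.7 and 5.39, 6.08 and 6.37 untreated (difference 3.09 ± 0.12 SE, adjusted p = 7.9e-09). RASGRP2, an exchange factor that activates RAP1, diverged instead, from 66.2, 72.1 and 63.5 to 28.5, 29.9 and 36.1 in Jurkat and from 39.8, 44.1 and 45.6 to 93.2, 102 and 93.6 in Molt-4 (difference 2.21 ± 0.12 SE, adjusted p = 1.5e-07). C11orf74 diverged too (difference 3.69 ± 0.26 SE, adjusted p = 8.6e-07), ending at 0.88, 1.33 and 2.19 in Jurkat and 26.7, 22.9 and 20.7 in Molt-4, and NPM2, a nucleoplasmin, converged (difference 2.52 ± 0.28 SE, adjusted p = 3.3e-05). CXorf49B, which has a near-identical copy that the counting may share with it, was listed at 0 in untreated Molt-4 and at 6.18, 4.85 and 7.59 in treated Molt-4, while Jurkat fell from 27.8, 30.6 and 14.8 to 1.79, 2.36 and 1.64 (difference 5.89 ± 0.32 SE, adjusted p = 1.2e-07).

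The reverse pattern, a rise in Jurkat and a fall in Molt-4, was called at 133 genes (0.961%). PTP4A3, a phosphatase linked to cell migration, had 1.98, 1.85 and 2.51 in untreated and 6.85, 6.75 and 5.47 in treated Jurkat, and 41.02, 40.9 and 39.7 in untreated and 25.2, 24.01 and 25.5 in treated Molt-4. Neither line's treated and untreated libraries overlapped, and the gap between the lines narrowed (difference -1.92 ± 0.14 SE, adjusted p = 1.1e-06). TMEM158 was listed at 0 in all 3 untreated Jurkat libraries and had 4.39, 4.10 and 5.49 in the treated ones, against 16.2, 16.1 and 12.8 falling to 7.30, 8.32 and 7.92 in Molt-4 (difference -3.35 ± 0.16 SE, adjusted p = 5.7e-08). COMMD9 started level in the lines, with 24.8, 21.1 and 24.03 and 25.1, 21.9 and 21.6, and ended apart, with 34.6, 32.97 and 37.1 in Jurkat and 14.98, 15.7 and 18.3 in Molt-4 (difference -1.03 ± 0.13 SE, adjusted p = 0.00011). CDH2, which encodes N-cadherin, did likewise (difference -0.998 ± 0.15 SE, adjusted p = 0.00031), and so did the antisense transcript ASB16-AS1 (difference -0.996 ± 0.18 SE, adjusted p = 0.0011). TMEM99 (difference -1.22 ± 0.12 SE, adjusted p = 1.5e-05) crossed over, being the lower in Jurkat before and the higher after treatment. UBXN8 (difference -1.04 ± 0.12 SE, adjusted p = 4.4e-05) and PLCD1, a phospholipase C (difference -1.41 ± 0.26 SE, adjusted p = 0.0015), had lower differences as well, although the Jurkat groups of PLCD1 overlapped, with 2.77, 3.12 and 4.74 untreated and 7.91, 5.73 and 4.09 treated. SLX1A, part of a DNA-structure endonuclease, has a near-identical copy, and its difference was -1.33 ± 0.22 (SE; adjusted p = 0.00077).

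**Figure D2:**
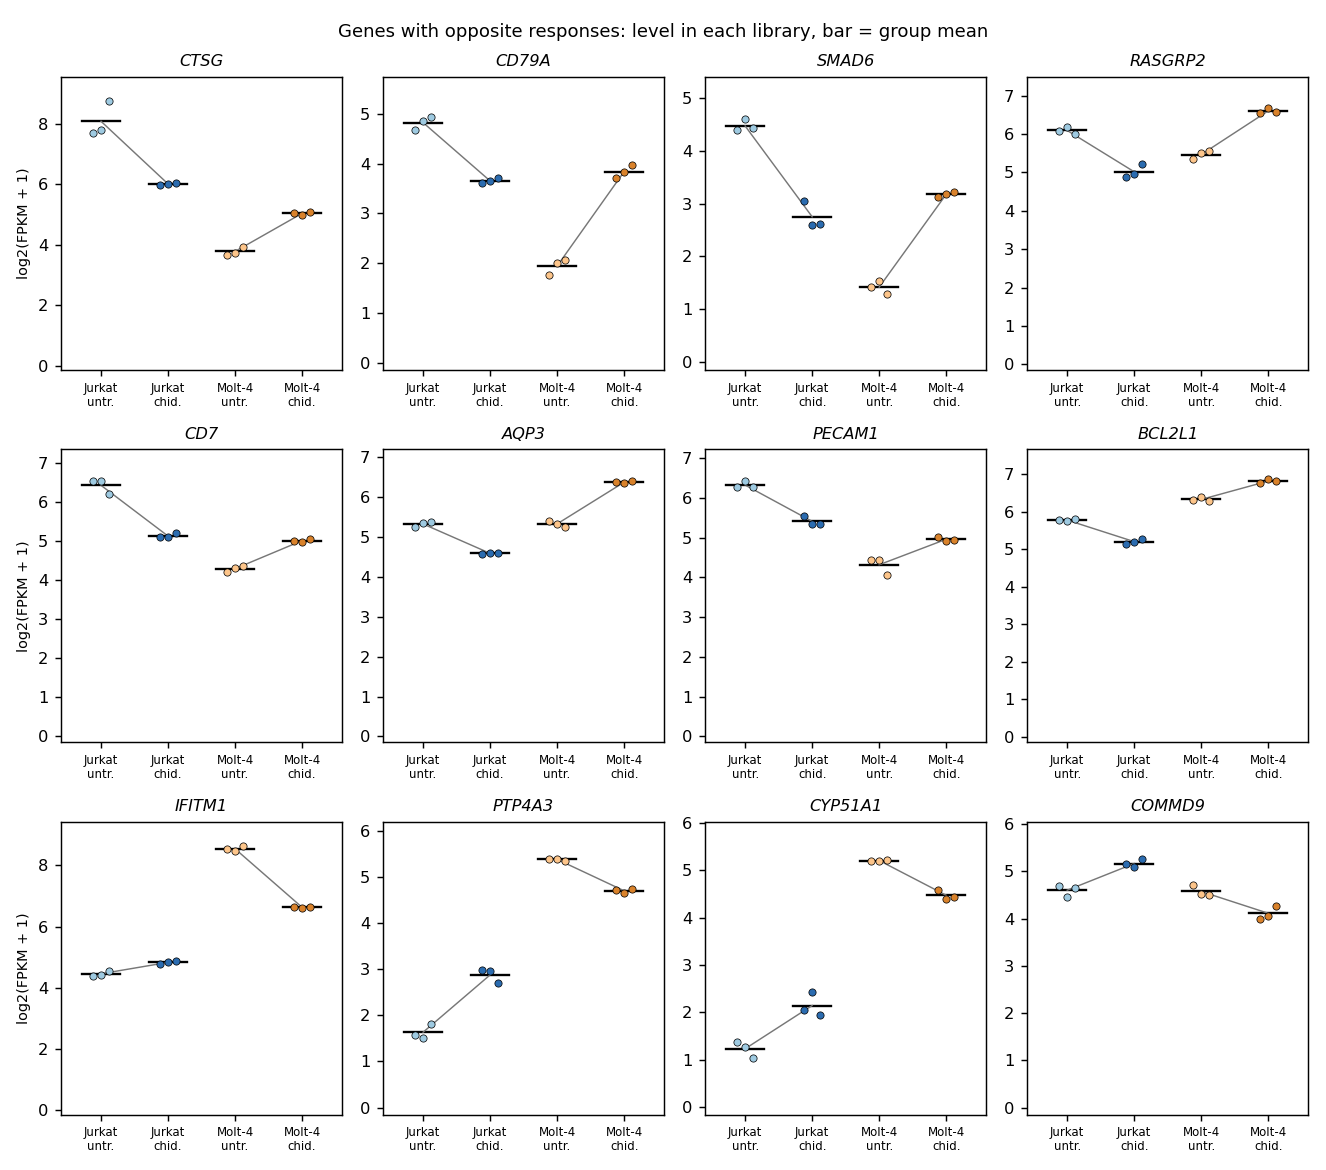
Level of 12 genes with opposite called responses in each library, as log2(FPKM + 1); points are the 3 libraries of a group, bars their mean, and grey lines join untreated (untr.) to treated (chid.) in each line. The first 8 panels fall in Jurkat and rise in Molt-4, and the last 4 rise in Jurkat and fall in Molt-4; for CD79A the treated lines end close together, and for AQP3 and COMMD9 lines that started level end apart.

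Of the 10 highest differences, 9 belonged to genes that rose in Molt-4, and the other is that of SCARNA16. CXorf49B, described above, is the one of the 9 that also fell in Jurkat. PRG2, the major basic protein of eosinophil granules, had 10.4, 9.43 and 9.43 in untreated and 1477, 1541 and 1537 in treated Molt-4, with 0.26, 0.17 and 0 in untreated and 0.19, 0 and 0.08 in treated Jurkat: its difference of 7.21 ± 0.14 (SE; adjusted p = 1.8e-11) was the highest named. CPXM1, a secreted carboxypeptidase-like protein, had 0.36, 0.62 and 0.52 in untreated and 77.4, 79.5 and 82.4 in treated Molt-4, against 17.7, 18.4 and 21.3 in untreated and 17.8, 17.6 and 18.2 in treated Jurkat (difference 5.85 ± 0.12 SE, adjusted p = 3.2e-11). PRSS2, a trypsinogen, had 0.52, 0.95 and 0.31 in untreated and 73, 80.4 and 76.6 in treated Molt-4 and 3.44, 5.64 and 2.89 in untreated and 3.03, 4.95 and 2.47 in treated Jurkat (difference 5.78 ± 0.32 SE, adjusted p = 1.4e-07). In CPXM1 and PRSS2 the order of the lines turned over, since Jurkat was the higher before and Molt-4 after treatment. TLE2, a Groucho co-repressor, climbed to the Jurkat level, from 2.29, 1.31 and 1.16 to 43.6, 46.6 and 47.3 beside 33.9, 35.5 and 32.9 and 43.1, 44.4 and 39.6 in Jurkat (difference 3.90 ± 0.18 SE, adjusted p = 3.7e-08). MFAP2, a microfibril protein, rose from 0.14, 0.15 and 0.22 to 17.9, 18.5 and 14.4 in Molt-4 and had no Jurkat value above 0.29 (difference 3.98 ± 0.16 SE, adjusted p = 7.9e-09). MFAP2 reached the filter on low values only with the treated Molt-4 libraries, so that its higher call was built in. SCARNA16, a small Cajal body RNA, was listed at 89.97, 80.9 and 81.3 in untreated Jurkat and at 0 in all 9 other libraries. An exact 0 may be a failed estimate for so short a gene, so no fold is given. SCARNA16 reached the filter only with the untreated Jurkat libraries, so that its higher call was built in.

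Of the 10 lowest differences, 8 belonged to genes that rose in Jurkat, and those of NKAIN4 and VPREB1 to genes that fell in Molt-4. FSCN1, which bundles actin, had 1.28, 1.49 and 1.80 in untreated and 27.2, 26.8 and 25.7 in treated Jurkat, and 70.9, 67.8 and 66.3 in untreated and 65.3, 64.7 and 62.8 in treated Molt-4 (difference -3.54 ± 0.11 SE, adjusted p = 1.5e-09). Treated Jurkat stayed below every Molt-4 library, and the Molt-4 response of -0.09 was not called. LMNA, encoding the nuclear lamins A and C, rose in both lines, from 0.51, 0.50 and 0.48 to 20.3, 15.5 and 21.4 in Jurkat and from 55.98, 60.2 and 55.8 to 76.2, 88.8 and 76.1 in Molt-4 (difference -3.25 ± 0.15 SE, adjusted p = 3.7e-08). TMSB15A, a thymosin (difference -3.15 ± 0.19 SE, adjusted p = 2.5e-07), and ADD2, the beta adducin of the membrane skeleton (difference -2.80 ± 0.29 SE, adjusted p = 2.1e-05), rose in Jurkat without a called rise in Molt-4. FRG2B, one of a set of near-identical copies, rose from 0, 0.11 and 0.16 to 14.96, 12.2 and 14.97 in Jurkat and had 0.11, 0 and 0 in untreated and 0.32, 0.10 and 0.26 in treated Molt-4 (difference -3.54 ± 0.16 SE, adjusted p = 3e-08). FRG2B reached the filter only with the treated Jurkat libraries, so that its lower call was built in. LAIR2, a secreted collagen-binding decoy receptor, rose in Jurkat from 0 in each library to 11.7, 16 and 10.2 (difference -2.94 ± 0.33 SE, adjusted p = 4e-05). NKAIN4 was listed at 0 in all 6 Jurkat libraries and fell from 15.1, 12.6 and 14.2 to 0.74, 1.06 and 1.27 in Molt-4, so its difference of -2.89 ± 0.15 (SE; adjusted p = 1.1e-07) is the Molt-4 response alone. NKAIN4 reached the filter only with the untreated Molt-4 libraries, so that its lower call was built in.

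NOTCH1 and NOTCH3 moved in ways that drew the lines together. NOTCH1 had 22.5, 22.2 and 17.6 in untreated and 14.5, 14.1 and 13.4 in treated Jurkat, and 81.6, 75.1 and 75.1 in untreated and 16.8, 18.1 and 16.6 in treated Molt-4. It fell in both lines and more in Molt-4 (difference -1.58 ± 0.12 SE, adjusted p = 2.1e-06), and the treated libraries of both lines lay between 13.4 and 18.1, Molt-4 still the higher. NOTCH3, another receptor of the family, had 29.4, 27.5 and 24.6 in untreated and 26.9, 26.8 and 27.5 in treated Jurkat, and 1.55, 2.54 and 2.43 in untreated and 6.86, 5.32 and 5.23 in treated Molt-4. Its Jurkat groups overlapped and its Molt-4 groups did not (difference 1.11 ± 0.19 SE, adjusted p = 0.00078). Among the ligands, DLL1 rose in both lines and more in Molt-4 (difference 1.56 ± 0.17 SE, adjusted p = 3.7e-05), while DLL3 fell in Jurkat and rose in Molt-4 (difference 1.40 ± 0.19 SE, adjusted p = 0.00017). JAG2 rose in Jurkat with 16.8, 16.6 and 14.7 untreated and 18.4, 15.3 and 19.2 treated in Molt-4 (difference -1.29 ± 0.16 SE, adjusted p = 7e-05). Of 26 tested receptors, ligands, processing enzymes and nuclear partners, 6 were higher and 4 lower, with a median difference of -0.04 beside 0.04 over all genes; the 38.5% called compares with 31.9% over all genes.

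Genes that NOTCH1 is known to activate in T-ALL were more often higher. Of 23 tested (65.2% called, beside 31.9% over all genes), 12 were higher and 3 lower, with a median difference of 0.47. Their median response was 0.14 in Jurkat and 0.43 in Molt-4. HES4, a repressor of the HES family, had 108, 118 and 111 in untreated and 78.3, 81.7 and 89.9 in treated Jurkat, and 4.82, 3.59 and 3.54 in untreated and 10.97, 13.9 and 14.3 in treated Molt-4: it fell in Jurkat and rose in Molt-4 (difference 1.93 ± 0.16 SE, adjusted p = 3.5e-06), yet stayed far lower in Molt-4. RUNX3, a Runt-family transcription factor, rose in both lines, from 16.7, 18.6 and 14.7 to 38.3, 43.3 and 40.03 in Jurkat and from 1.10, 0.58 and 0.88 to 16.1, 17.7 and 17.3 in Molt-4 (difference 2.06 ± 0.16 SE, adjusted p = 1.9e-06). IL7R, the interleukin-7 receptor chain, had 6.58, 5.66 and 6.53 in untreated and 6.51, 7.57 and 6.90 in treated Jurkat, and 0.03, 0.43 and 0.03 in untreated and 1.91, 3.59 and 2.85 in treated Molt-4 (difference 1.55 ± 0.24 SE, adjusted p = 0.00041). HEYL and HEY2, relatives of HES4, had differences of 1.37 and 1.21 (adjusted p = 3.9e-05 and 9.3e-05). MYC fell in both lines and more in Jurkat, from 281, 278 and 220.3 to 161, 165 and 166 against 235, 239.8 and 219 to 196, 196 and 194 in Molt-4 (difference 0.41 ± 0.11 SE, adjusted p = 0.015). HEY1 rose in both lines, from 0.50 to 0.72 up to 5.13, 6.21 and 8.65 in Jurkat and from 0.47 to 1.16 up to 5.23, 3.89 and 3.82 in Molt-4, and its difference of -0.56 ± 0.26 (SE; adjusted p = 0.13) was not called.

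DTX1, a regulator of NOTCH signalling, fell in Jurkat from 47.6, 46.9 and 31.7 to 23.9, 22.9 and 25.5 and had 4.73, 4.98 and 5.64 in untreated and 4.24, 5.05 and 5.24 in treated Molt-4 (difference 0.69 ± 0.20 SE, adjusted p = 0.019); after quantile normalization the difference was 0.16 (adjusted p = 0.56). PTCRA, which encodes the alpha chain of the pre-T-cell receptor, fell in both lines to at most 0.39 FPKM, and its difference of 0.56 ± 0.19 (SE; adjusted p = 0.042) was not called when any 1 of 10 libraries was left out: all 3 of treated Jurkat, all 3 of untreated Molt-4, replicates 2 and 3 of untreated Jurkat or replicates 2 and 3 of treated Molt-4 (differences of 0.42 to 0.60). Among other MYC family genes, MYCN rose more in Jurkat (difference -0.97 ± 0.18 SE, adjusted p = 0.0013), a call not made with a pseudocount of 0.1, where the difference was -0.26 (adjusted p = 0.58). Of 10 tested partners and antagonists of these, 1 was higher and 1 lower. With MYC, MYCN and MYCL included, 2 of 13 were higher and 2 lower (30.8% called, beside 31.9% over all genes). The lower ones numbered 4 with median-of-ratios scaling or equal totals without 7SL RNA and 5 after quantile normalization. Of 41 MYC-activated ribosome biogenesis and growth genes, 8 were higher and 2 lower (24.4% called, below the 31.9% over all genes). None of them rose in either line, and 35 fell in Jurkat and 35 in Molt-4. Over all genes tested, 25.4% fell in Jurkat and 24.6% in Molt-4. Higher growth genes went from 8 to 5 without untreated Jurkat replicate 2 or treated Molt-4 replicate 2 and to 19 without untreated Jurkat replicate 3. Lower growth genes went from 2 to 1 without treated Jurkat replicate 1 or 2, untreated Molt-4 replicate 2 or treated Molt-4 replicate 3. TERT, the telomerase catalytic subunit, fell from 13.4, 14.8 and 11.4 to 1.41, 0.60 and 1.04 in Jurkat and from 4.20, 4.01 and 2.53 to 1.90, 2.08 and 1.74 in Molt-4 (difference 2.19 ± 0.25 SE, adjusted p = 3.8e-05). ODC1, which makes polyamines, fell in Molt-4 with overlapping Jurkat groups (difference -0.76 ± 0.14 SE, adjusted p = 0.0016).

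**Figure D3:**
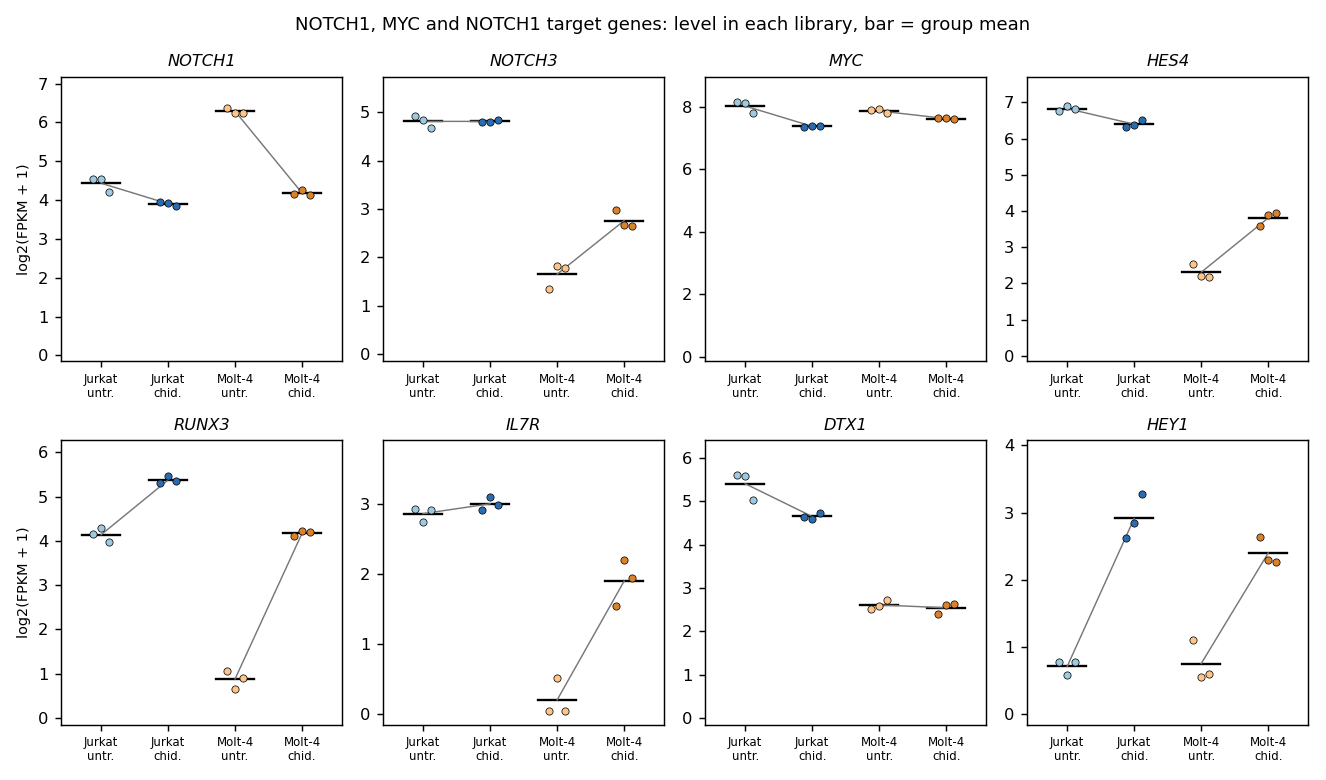
Level of NOTCH1, NOTCH3, MYC and 5 NOTCH1 target genes in each library, as log2(FPKM + 1); points are the 3 libraries of a group, bars their mean, and grey lines join untreated (untr.) to treated (chid.). NOTCH1 falls to close levels in both lines, HES4 moves in opposite directions, and IL7R and NOTCH3 rise in Molt-4 from near 0 or low levels.

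HES4 and RUNX3 had 2 of the highest differences among the NOTCH1 target genes. Their promoters are shown, from 250 bases before to 50 after the RefSeq start, because RBPJ, the DNA-binding partner of NOTCH1, recognises TGGGAA. The sequences are RefSeq GRCh38.p14, minus strand, at chr1:1000048-1000347 for HES4 and chr1:24964961-24965260 for RUNX3, with matches on either strand in capitals.
HES4: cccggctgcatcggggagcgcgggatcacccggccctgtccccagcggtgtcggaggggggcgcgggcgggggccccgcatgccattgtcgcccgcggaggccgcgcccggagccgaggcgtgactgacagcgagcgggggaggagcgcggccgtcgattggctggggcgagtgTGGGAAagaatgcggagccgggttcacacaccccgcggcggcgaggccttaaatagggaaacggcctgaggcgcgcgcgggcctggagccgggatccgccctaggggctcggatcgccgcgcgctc
RUNX3: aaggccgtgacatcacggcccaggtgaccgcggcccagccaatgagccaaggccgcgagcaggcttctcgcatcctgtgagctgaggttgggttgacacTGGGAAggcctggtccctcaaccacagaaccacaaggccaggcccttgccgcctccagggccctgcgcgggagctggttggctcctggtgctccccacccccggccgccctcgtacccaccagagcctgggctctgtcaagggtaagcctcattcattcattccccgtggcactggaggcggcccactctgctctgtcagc

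Each of these windows held 1 match to TGGGAA, starting 76 bases before the start of HES4 and 151 before the first listed of 2 starts of RUNX3. The motif was found in 24.3% of all 27305 promoters of the table, in 21.2% of those of the genes tested and in 8 of the 20 NOTCH1 target genes with a promoter entry. Among the genes tested it was in 21.2% of those with a higher and 19.6% of those with a lower difference. A match describes letters in a window and is not evidence of binding.

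Of 33 tested erythroid and megakaryocyte genes (78.8% called, beside 31.9% over all genes), 21 were higher and 5 lower. Of the 33, 6 reached the filter on low values only with the treated Molt-4 libraries, and 5 of these were higher. ALAS2, the first enzyme of haem synthesis in red cells, had 16.4, 11.4 and 12.1 in untreated and 123, 119 and 111 in treated Molt-4, and at most 0.07 in Jurkat (difference 3.01 ± 0.17 SE, adjusted p = 1.3e-07). It was chosen after its values were seen. CA1, carbonic anhydrase 1, rose from 1.12, 1.37 and 0.97 to 43.5, 41.04 and 38.6 in Molt-4 (difference 4.25 ± 0.13 SE, adjusted p = 1.8e-09). SLC4A1, the band 3 anion exchanger of the red cell membrane, rose from 0.66, 1.53 and 1.47 to 33.4, 32.6 and 31.7 (difference 3.93 ± 0.19 SE, adjusted p = 6.4e-08); no Jurkat library had either above 0.05. HBE1, the embryonic beta-like globin, rose from 366, 379 and 397 to 4369, 4454 and 4516 (difference 3.32 ± 0.13 SE, adjusted p = 8.3e-09). All of these genes had an FPKM above 0.6 in every untreated Molt-4 library, and their treated and untreated libraries did not overlap. CA1 and SLC4A1 were nonetheless among the genes that reached the filter only with the treated Molt-4 libraries, so that their higher calls were built in.

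The erythroid genes did not move as 1 block in Molt-4. HBG2 and HBG1, fetal globins so alike that the counting can split their reads, rose with responses of 1.23 and 1.17, GATA1 with 0.85, and RHAG, of the Rhesus complex, with 0.88. HBZ, the embryonic alpha-like globin, fell in Molt-4 by 0.29, with a difference of -0.29 ± 0.07 (SE; adjusted p = 0.01) that was not called with a pseudocount of 0.1 or after quantile normalization (adjusted p = 0.072 and 0.16). KLF1 and AHSP, a chaperone of alpha globin, had Molt-4 responses of 0.13 and -0.28 with no called difference. That of KLF1 was called after quantile normalization (0.77, adjusted p = 0.0025) and with array weights (0.41, adjusted p = 0.044), and that of AHSP without replicate 1 of untreated Jurkat (-0.99, adjusted p = 0.0078). With a pseudocount of 0.1 the differences of GATA1 and HBG2 were -0.06 and 0.15 and not called (adjusted p = 0.94 and 0.75). Their Jurkat values lie at or near 0. HBA2, which shares its coding sequence with HBA1, went the other way: Jurkat had 0, 0.64 and 0.42 untreated and an uneven 3.51, 37.8 and 36.7 treated, against 501, 528 and 517 in untreated and 693, 698 and 687 in treated Molt-4 (difference -3.40 ± 0.87 SE, adjusted p = 0.01).

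The ALAS2 promoter is shown for the list as a whole, since 8 of its 15 tested members with a promoter entry hold the GATA motif AGATAA on either strand, against 10.5% of all promoters and 5.11% of those of genes tested. It was in 6.39% of promoters of genes with a higher and 5.2% of those with a lower difference. The window lies at chrX:55030928-55031227, minus strand, RefSeq GRCh38.p14, with the match, on the reverse strand and starting 127 bases before the start, in capitals.
ALAS2: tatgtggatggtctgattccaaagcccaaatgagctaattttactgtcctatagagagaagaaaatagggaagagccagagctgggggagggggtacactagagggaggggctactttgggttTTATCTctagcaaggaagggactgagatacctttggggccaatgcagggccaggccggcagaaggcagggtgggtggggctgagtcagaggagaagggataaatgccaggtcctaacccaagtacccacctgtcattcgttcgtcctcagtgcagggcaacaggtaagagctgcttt

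Of 23 listed myeloid genes, 10 were tested, 7 of them higher and 0 lower (70% called, beside 31.9% over all genes). Of the 7, 3 reached the filter on low values only with the treated Molt-4 libraries, so that a higher call was built in, and without the filter 12 were higher. The summed FPKM of the list was 28.9 to 31.6 in untreated and 1616 to 1679 in treated Molt-4, against 8.32 to 9.74 and 12.3 to 17.7 in Jurkat. PRG2 made up most of the sum in treated Molt-4. LYZ, lysozyme, had 0.39, 0.86 and 0.78 in untreated and 63.9, 62.7 and 62.1 in treated Molt-4, and no Jurkat value above 0.33 (difference 5.31 ± 0.20 SE, adjusted p = 7.9e-09). LYZ was among the 3 genes that reached the filter only with treated Molt-4. SPI1, the myeloid regulator PU.1, had 1.41, 1.06 and 1.32 in untreated and 11.4, 12.02 and 13.6 in treated Molt-4 with at most 0.11 in Jurkat (difference 2.63 ± 0.14 SE, adjusted p = 1e-07). The granule genes MPO and ELANE stayed at or under 0.25 FPKM in all 12 libraries, EPX, a peroxidase of eosinophils, at or under 0.30, and 9 of the 23 listed genes stayed under 1 throughout. Other granule proteases did not stay as low. PRTN3 had 0.57 to 1.22 in treated Molt-4 and at most 0.27 elsewhere, and CTSG, described above, was expressed in every library.

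**Figure D4:**
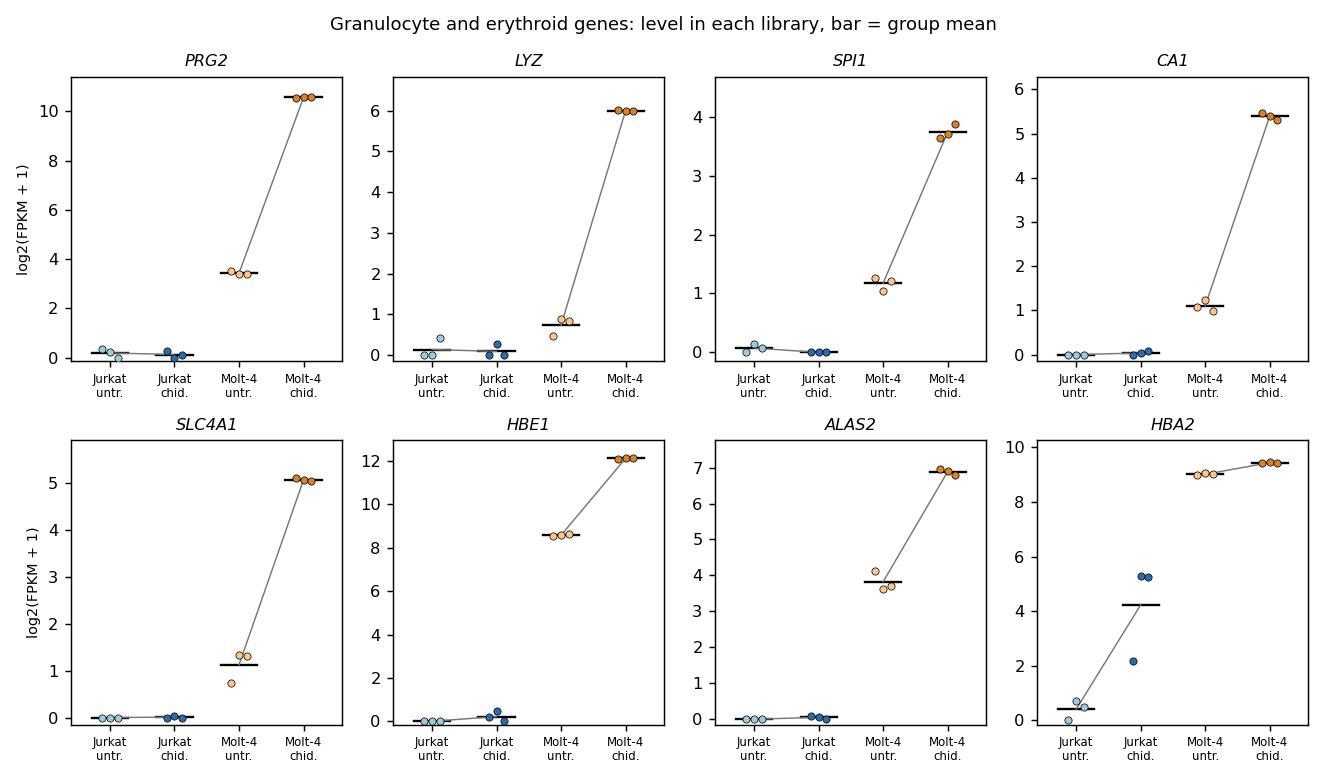
Level of 3 myeloid and 5 erythroid genes in each library, as log2(FPKM + 1); points are the 3 libraries of a group, bars their mean, and grey lines join untreated (untr.) to treated (chid.). In 7 panels Jurkat stays near 0 while Molt-4 rises; HBA2 is high in Molt-4 throughout and rises unevenly in Jurkat.

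Markers of further cell types were also measured, and their part in the other results was not tested. Some were tested only because treated Molt-4 brought them past the filter, all of them called higher: 3 of 11 B-cell, 2 of 8 epithelial and 1 of 6 fibroblast and endothelial genes, so these counts say nothing about the lists. FCRLA and CDH1, described below, were among them, so that their higher calls were built in. Of the 11 B-cell genes, 9 were higher and 1 lower: CR2, a complement receptor, rose from 5.22, 5.84 and 5.09 to 21.9, 21.6 and 18.9 in Molt-4 (difference 1.59 ± 0.17 SE, adjusted p = 2.4e-05) and FCRLA, an Fc receptor-like protein, from at most 0.11 to 3.75, 4.05 and 4.65 (difference 2.19 ± 0.15 SE, adjusted p = 6e-07). The mature B-cell marker MS4A1 and the B-lineage factor PAX5 stayed at or under 0.27 and 0.14 FPKM in all libraries. The lower member was VPREB1, the surrogate light chain of immature lymphocytes, which fell in both lines, in Molt-4 from 26.4, 28.2 and 29.7 to 1.77, 1.69 and 1.66 and in Jurkat from 1.91, 0.84 and 0.73 to 0.27, 0.37 and 0.23 (difference -2.72 ± 0.23 SE, adjusted p = 3.8e-06). The summed B-cell list was 369 to 411 in untreated and 38.6 to 47.2 in treated Jurkat, of which IGLL1, described with the thymocyte genes, was the largest term before treatment, and 126 to 128 and 188 to 190 in Molt-4. Of 8 tested epithelial genes, 5 were higher, 3 with a pseudocount of 0.1, and 0 lower. CDH1, which encodes E-cadherin, rose from 2.38, 1.12 and 0.79 to 22.5, 22.7 and 21.8 in Molt-4 with at most 0.03 in Jurkat (difference 3.33 ± 0.25 SE, adjusted p = 1.5e-06). KRT19, a keratin, rose from 27.3, 28.2 and 25.4 to 68.3, 69.2 and 70.1 (difference 1.38 ± 0.16 SE, adjusted p = 3.8e-05, and not called at adjusted p = 0.081 with a pseudocount of 0.1). The summed epithelial list was at 121 to 124 in untreated and 288 to 299.8 in treated Molt-4, and at no more than 6.45 in Jurkat. Of 6 fibroblast and endothelial genes, 4 were higher and 0 lower, with 8 of 14 listed genes under 1 in all libraries; the summed list was 304 to 332 and 612 to 664 in Jurkat and 331 to 363 and 1029 to 1053 in Molt-4. THY1, a surface glycoprotein also found on thymocytes, rose from 0.04, 0.02 and 0.03 to 27.04, 25.2 and 33.96 in Molt-4 and from 42.2, 46.4 and 43.1 to 99.8, 94.4 and 110.2 in Jurkat (difference 3.65 ± 0.14 SE, adjusted p = 7.9e-09). PECAM1, an adhesion molecule, moved in opposite directions (difference 1.55 ± 0.14 SE, adjusted p = 6.9e-06). MUC3A, an intestinal mucin, rose in both lines, to 16.6, 18.7 and 16.8 in Molt-4 but at most 0.57 in Jurkat (difference 3.25 ± 0.15 SE, adjusted p = 3.7e-08). MUC3A too reached the filter only with the treated Molt-4 libraries, so that its higher call was built in. Lower epithelial genes went from 0 to 1 without untreated Jurkat replicate 2, untreated Molt-4 replicate 2 or treated Molt-4 replicate 2. Lower stromal genes went from 0 to 1 without untreated Jurkat replicate 1.

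Of 9 tested genes of cytotoxic lymphocytes (66.7% called, beside 31.9% over all genes), 3 were higher and 3 lower. The summed list was 20.1 to 28.9 and 89.1 to 96.95 in Jurkat and 52.1 to 55.5 and 138 to 141 in Molt-4. NCAM1, the NK marker CD56, rose to 28.3, 25.1 and 22.4 in Jurkat and 5.25, 4.23 and 5.25 in Molt-4 from no more than 0.17 (difference -2.01 ± 0.16 SE, adjusted p = 2.3e-06). EOMES, a T-box factor, rose more in Jurkat (difference -1.52 ± 0.19 SE, adjusted p = 0.0001). GZMM, a granzyme, rose more in Molt-4 (difference 1.04 ± 0.24 SE, adjusted p = 0.006). CST7, a protease inhibitor, fell in Jurkat and rose in Molt-4 (difference 2.48 ± 0.30 SE, adjusted p = 6.5e-05).

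Of 21 tested genes of immature thymocytes, 15 fell in Jurkat and 14 in Molt-4, where 25.4% and 24.6% of all genes tested fell. Their differences divided evenly, with 9 higher and 9 lower (85.7% called, beside 31.9% over all genes). The median responses were -1.17 in Jurkat and -1.90 in Molt-4. RAG1, which cuts antigen receptor genes, fell from 38.05, 37.5 and 36.5 to 4.96, 4.87 and 4.54 in Jurkat and from 91.6, 91.6 and 84.6 to 1.93, 2.04 and 1.76 in Molt-4, so that Molt-4 went from the higher to the lower line (difference -2.23 ± 0.10 SE, adjusted p = 2.1e-08). CD1B, a lipid antigen presenter of cortical thymocytes, fell from 28.7, 29.2 and 38 to 9.28, 7.74 and 8.17 and from 88.8, 89.7 and 83.8 to 8.66, 5.63 and 7.47 (difference -1.64 ± 0.19 SE, adjusted p = 5.5e-05). Its relatives CD1A and CD1E had differences of -0.80 and -0.50, while CD1C and CD1D fell more in Jurkat, with differences of 1.46 and 0.81; that of CD1D was 0.21 after quantile normalization and not called (adjusted p = 0.28). ADA, adenosine deaminase, also fell more in Molt-4 (difference -1.29 ± 0.06 SE, adjusted p = 5e-08), while IGLL1, another surrogate light chain component, fell more in Jurkat (difference 1.16 ± 0.16 SE, adjusted p = 0.00017). DNTT, the terminal transferase that marks lymphoblasts, fell from 103, 98.2 and 168 to 4.33, 4.27 and 3.02 in Jurkat and from 74.9, 77.4 and 73.8 to 1.74, 2.15 and 1.51 in Molt-4, with a difference of -0.14 ± 0.26 (SE; adjusted p = 0.72) that was not called. AQP3, a water and glycerol channel, went against the list in Molt-4, from 41.3, 39.1 and 37.3 to 82.3, 80.4 and 83.4, and fell in Jurkat from 37.3, 39.6 and 40.7 to 22.8, 23.3 and 23.1 (difference 1.78 ± 0.08 SE, adjusted p = 2.1e-08).

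T-cell receptor and proximal signalling genes were more often higher. Of 32 tested (59.4% called, beside 31.9% over all genes), 16 were higher and 3 lower, with a median difference of 0.33. The median response was -0.18 in Jurkat and 0.34 in Molt-4. Among the higher genes, 1 reached the filter only with the treated Molt-4 libraries. CD7, an early T-lineage surface protein, fell from 91.3, 92.2 and 72.4 to 33.03, 33.1 and 35.6 in Jurkat and rose from 17.5, 18.9 and 19.4 to 31.1, 30.6 and 31.9 in Molt-4, so that lines far apart became near neighbours (difference 2.02 ± 0.12 SE, adjusted p = 2.6e-07). CD4, the co-receptor for MHC class II, exchanged places, with 7.55, 8.06 and 8.79 in untreated and 3.80, 3.86 and 4 in treated Jurkat, and 2.80, 2.59 and 4.21 in untreated and 7.18, 7.95 and 7.81 in treated Molt-4 (difference 1.96 ± 0.18 SE, adjusted p = 7.2e-06). PTPN6, the phosphatase SHP-1 that dampens receptor signals, had 47.1, 53.2 and 55.5 in untreated and 30.4, 30.1 and 32.97 in treated Jurkat, and 14.3, 11.8 and 14.04 in untreated and 27.4, 26.1 and 25.2 in treated Molt-4 (difference 1.64 ± 0.12 SE, adjusted p = 1.2e-06). CD247, the zeta signalling chain, moved in opposite directions as well (difference 1.63 ± 0.08 SE, adjusted p = 5.7e-08). CD28, the co-stimulatory receptor, rose in both lines and more in Molt-4, from 0.49, 0.66 and 0.85 to 13.6, 16.96 and 14.2 beside 30.9, 28.9 and 39.98 to 68.4, 66.5 and 70.2 in Jurkat (difference 2.23 ± 0.18 SE, adjusted p = 2.3e-06). The adaptors LCP2 and SIT1 rose more in Molt-4, with differences of 0.73 and 0.85 (adjusted p = 0.00054 and 0.00053). Lower receptor signalling genes went from 3 to 5 without untreated Jurkat replicate 3.

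Of 29 T-ALL and T-lineage transcription factors, 5 were higher and 5 lower (34.5% called, beside 31.9% over all genes). ZBTB7B, which directs thymocytes to the CD4 fate, rose in Jurkat from 0.51, 0.84 and 0.78 to 10.5, 9.40 and 12.2, to about the untreated Molt-4 level of 12.3, 8.64 and 11.8, and rose less in Molt-4 (difference -2.06 ± 0.20 SE, adjusted p = 1.1e-05). The T-ALL oncogenes LMO1 and LMO2 split the lines: LMO1 was listed at 0 in all 6 Molt-4 libraries and fell in Jurkat from 6.57, 7.63 and 6 to 1.02, 0.67 and 1.70 (difference 1.88 ± 0.21 SE, adjusted p = 3.5e-05), while LMO2 rose in Jurkat from at most 0.12 to 2.54, 1.56 and 2.01 and had 37.4, 38.5 and 39.7 in untreated and 39.8, 43.5 and 43.4 in treated Molt-4 (difference -1.39 ± 0.16 SE, adjusted p = 3.7e-05). LMO1 reached the filter on low values only with the untreated Jurkat libraries, so that its higher call was built in. LEF1, a WNT-pathway factor, rose in both lines and more in Jurkat (difference -0.44 ± 0.12 SE, adjusted p = 0.018).

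Immediate-early and MAPK feedback genes were more often higher. Of 30 tested (63.3% called, beside 31.9% over all genes), 15 were higher and 4 lower, with a median difference of 0.46. The median responses were 0.51 in Jurkat and 1.33 in Molt-4. Of the higher genes, 1 reached the filter only with the treated Molt-4 libraries. SPRY1, an inhibitor of receptor tyrosine kinase signalling, rose from 12.9, 12.8 and 11.9 to 225, 228 and 225 in Molt-4 and from 4.64, 3.77 and 4.72 to 13.8, 12.01 and 12.6 in Jurkat (difference 2.71 ± 0.11 SE, adjusted p = 1.6e-08). DUSP6, the ERK phosphatase, rose from 2.13, 2.50 and 1.53 to 18.5, 20.2 and 18.1 in Molt-4 and stayed at or under 0.82 in Jurkat (difference 2.90 ± 0.21 SE, adjusted p = 1.2e-06). EGR1, a zinc finger factor induced by ERK, fell in Jurkat from 2.30, 2.40 and 4.14 to 0.57, 0.39 and 0.59 and rose in Molt-4 from 41.4, 38.05 and 39.7 to 85.6, 85.6 and 89.02 (difference 2.46 ± 0.20 SE, adjusted p = 2.9e-06). JUNB, an AP-1 subunit, did the same (difference 1.72 ± 0.10 SE, adjusted p = 1.4e-07). ATF3, a stress-induced factor, rose in Molt-4 from 6.82, 7.12 and 6.89 to 34.6, 31.03 and 24.96 (difference 1.96 ± 0.34 SE, adjusted p = 0.0011), beside 8.93, 8.05 and 19.7 untreated and 12.3, 10.4 and 11.3 treated in Jurkat, where untreated replicate 3 was the highest. IER3, an anti-apoptotic early gene, was among the 4 lower members (difference -0.61 ± 0.11 SE, adjusted p = 0.0016).

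Surface adhesion genes showed a like tilt. Of 30 integrins, tetraspanins and adhesion molecules (70% called, beside 31.9% over all genes), 20 were higher and 1 lower, with a median difference of 0.60. Their median response was 0.16 in Jurkat and 0.84 in Molt-4. CD44, the hyaluronan receptor, rose from 11.6, 11.9 and 13.6 to 43, 44.6 and 48.1 in Molt-4 and stayed at or under 0.24 in Jurkat (difference 1.67 ± 0.14 SE, adjusted p = 2.9e-06; adjusted p = 0.052 with a pseudocount of 0.1). The integrin alpha-3 gene ITGA3 rose in both lines and more in Molt-4 (difference 1.52 ± 0.17 SE, adjusted p = 3.7e-05). ITGAL, the alpha chain of LFA-1, rose in Molt-4 from 4.53, 3.96 and 4.77 to 12.7, 12.4 and 11.98 and had overlapping Jurkat groups (difference 1.43 ± 0.14 SE, adjusted p = 1.3e-05). Lower adhesion genes went from 1 to 2 without untreated Jurkat replicate 3.

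Cytokine receptor, NF-kappaB and interferon genes differed in both directions. Of 32 cytokine receptor and JAK-STAT genes (65.6% called, beside 31.9% over all genes), 11 were higher and 10 lower, the former 7 after quantile normalization. IL9R, the interleukin-9 receptor, fell in Jurkat from 19.4, 20.4 and 18.2 to 6.76, 5.15 and 5.15 and rose in Molt-4 from 4.98, 3.86 and 3.62 to 8.67, 5.10 and 5.75 (difference 2.14 ± 0.23 SE, adjusted p = 3.2e-05). PIM1, a STAT-induced kinase, rose in Jurkat from 2.29, 2.74 and 6.49 to 21.7, 18.4 and 19.6 and had 174, 173 and 179.8 in untreated and 243, 247 and 254 in treated Molt-4 (difference -1.71 ± 0.32 SE, adjusted p = 0.0014). IL10RA, an interleukin-10 receptor chain, rose more in Jurkat (difference -1.50 ± 0.22 SE, adjusted p = 0.00031). Of 18 NF-kappaB genes, 4 were higher and 3 lower (38.9% called), the former 7 with array weights. In the cytokine and the NF-kappaB list, 1 higher gene each reached the filter only with the treated Molt-4 libraries. BIRC3, an apoptosis inhibitor, rose more in Molt-4 (difference 1.23 ± 0.14 SE, adjusted p = 4.1e-05) and CD83, a maturation marker, more in Jurkat (difference -1.19 ± 0.09 SE, adjusted p = 1.4e-06), while TNFAIP2 fell in Jurkat (difference 1.38 ± 0.28 SE, adjusted p = 0.0028). Of 34 interferon genes (52.9% called), 10 were higher and 8 lower, the latter 14 after quantile normalization. IFITM1, an antiviral membrane protein, fell in Molt-4 from 371, 351 and 397 to 99.2, 96.7 and 98.6 and rose in Jurkat from 19.9, 20.6 and 22.6 to 26.2, 27.5 and 28.6 (difference -2.28 ± 0.09 SE, adjusted p = 7.9e-09). RSAD2, the antiviral enzyme viperin, rose in Molt-4 from 3.35, 4.27 and 3.15 to 23.5, 24.4 and 24.5 (difference 2.14 ± 0.24 SE, adjusted p = 3.9e-05), as did the RNA exonuclease ISG20 (difference 1.69 ± 0.34 SE, adjusted p = 0.0027). IFI27 rose more in Molt-4 (difference 1.56 ± 0.32 SE, adjusted p = 0.003).

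Antigen presentation genes also split. HLA reads can be shared between paralogs and depend on each line's alleles, so these values are uncertain. Of 18 class I genes (44.4% called, beside 31.9% over all genes), 5 were higher and 3 lower. HLA-B rose from 48.97, 41.1 and 59.4 to 313, 243 and 301 in Jurkat and from 2.29, 2.21 and 7.21 to 166, 201 and 209 in Molt-4 (difference 2.94 ± 0.41 SE, adjusted p = 0.00021). ERAP2, a peptide-trimming enzyme, fell more in Molt-4 (difference -0.95 ± 0.12 SE, adjusted p = 8.7e-05). Of 9 class II genes (77.8% called), 3 were higher and 4 lower, the latter 2 with a pseudocount of 0.1. HLA-DMA, which loads peptides, rose more in Molt-4 (difference 1.78 ± 0.17 SE, adjusted p = 8.2e-06). HLA-DRB1 rose in Jurkat from 0.69, 0.80 and 0.86 to 3.87, 4.33 and 5.32 and stayed at or under 0.11 in Molt-4 (difference -1.54 ± 0.15 SE, adjusted p = 1e-05). It reached the filter only with the treated Jurkat libraries, so that its lower call was built in. HLA-DRA rose more in Jurkat (difference -1.31 ± 0.20 SE, adjusted p = 0.00043). HLA-DQB1 rose more in Jurkat too (difference -1.84 ± 0.18 SE, adjusted p = 1.4e-05), but not with a pseudocount of 0.1 (adjusted p = 0.27).

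With the deposited values of all 12 libraries, genes of DNA replication, repair and the ribosome held a smaller share of called differences than the genes at large. Of 41 DNA replication genes, 5 were higher and 4 lower, of 27 homologous recombination and Fanconi genes, 3 were higher and 1 lower, and of 74 ribosomal proteins, 11 were higher and 5 lower, against 31.9% called over all genes. With equal totals without 7SL RNA, 3 replication genes were higher. The ribosomal counts depended on the scaling, with 5 higher and 12 lower at equal totals without 7SL RNA and 18 lower after quantile normalization. With replicate 3 of both untreated groups left out, 21 ribosomal protein genes were higher and 8 lower. That was not a smaller share than over all 13840 genes, of which 2957 were then higher and 1904 lower. Higher repair genes went from 3 to 1 without untreated Jurkat replicate 3, treated Jurkat replicate 3, untreated Molt-4 replicate 1 or 2 or treated Molt-4 replicate 2. After quantile normalization 3 repair genes were lower. Lower repair genes went from 1 to 2 without untreated Jurkat replicate 3, treated Jurkat replicate 3 or untreated Molt-4 replicate 3. Higher ribosomal protein genes went from 11 to 7 without treated Jurkat replicate 2 or untreated Molt-4 replicate 2 and to 20 without untreated Molt-4 replicate 3. Lower ribosomal protein genes went from 5 to 3 without untreated Jurkat replicate 1 or 2, treated Jurkat replicate 1 or 2, untreated Molt-4 replicate 2 or 3 or treated Molt-4 replicate 1 or 2 and to 8 without untreated Jurkat replicate 3. MCM3, part of the replicative helicase, fell in Jurkat and rose in Molt-4 (difference 0.44 ± 0.06 SE, adjusted p = 0.0002). MCM2, its partner, fell in Jurkat with overlapping Molt-4 groups (difference 0.49 ± 0.08 SE, adjusted p = 0.00069). CCNE1, cyclin E1, fell in Molt-4, with a difference of -0.69 (adjusted p = 0.0082). FANCD2, a Fanconi repair protein, fell in Jurkat (difference 0.73 ± 0.15 SE, adjusted p = 0.0029). RPL24 fell in Jurkat and rose in Molt-4 (difference 0.53 ± 0.07 SE, adjusted p = 0.00016). RPS23 fell more in Jurkat (difference 0.49 ± 0.07 SE, adjusted p = 0.00023).

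Mitotic genes leaned the other way: of 39, 1 was higher and 10 lower, with a median difference of -0.11. The share called was 28.2%, below the 31.9% over all genes, of which 19.8% were higher and 12.1% lower. KIF11, the spindle motor Eg5, rose in Jurkat from 30.3, 29.2 and 30.4 to 42.2, 43.7 and 41.3 and had 32.5, 33.9 and 32.97 in untreated and 32.6, 33.8 and 32 in treated Molt-4 (difference -0.50 ± 0.07 SE, adjusted p = 0.00024). MKI67, the Ki-67 proliferation antigen, rose in Jurkat from 58.5, 57.6 and 58.9 to 63.7, 64.5 and 67.4 and fell in Molt-4 from 77.1, 79.3 and 74.1 to 64.8, 63.4 and 62.6 (difference -0.43 ± 0.06 SE, adjusted p = 0.00038). CCNB1, cyclin B1, fell in Molt-4 (difference -0.39 ± 0.11 SE, adjusted p = 0.019). Higher mitotic genes went from 1 to 2 without untreated Jurkat replicate 3 or treated Molt-4 replicate 1 or 3. All 3 called CDK inhibitors of 5 tested (60% called) were lower. CDKN1A, the inhibitor p21 and a classic target of deacetylase inhibitors, rose from 1.67, 1.08 and 1.13 to 52, 50.1 and 50.2 in Jurkat and from 0.59, 0.63 and 0.69 to 17.4, 21.03 and 21.3 in Molt-4 (difference -0.84 ± 0.16 SE, adjusted p = 0.0016), a difference not called with a pseudocount of 0.1 (-0.46, adjusted p = 0.14). CDKN2D, the inhibitor p19, rose more in Jurkat (difference -0.72 ± 0.16 SE, adjusted p = 0.0044). CDKN2C, the inhibitor p18, fell in Molt-4 (difference -0.48 ± 0.14 SE, adjusted p = 0.023), a call lost without replicate 1 or 2 of untreated Jurkat or replicate 3 of treated Molt-4 (adjusted p = 0.052, 0.053 and 0.051).

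Histone genes differed by type. Of 41 replication-dependent core histones (43.9% called, beside 31.9% over all genes), 17 were higher and 1 lower, with a median difference of 0.63. They have many near-identical copies, and their summed FPKM was 926 to 941 in untreated and 1643 to 1689 in treated Molt-4, against 84.3 to 111 and 104 to 117 in Jurkat. HIST1H2AI rose from 16.4, 17.5 and 15.7 to 109, 112 and 101 in Molt-4 beside 1.55, 0.97 and 1.36 and 1.22, 0.89 and 0.79 in Jurkat (difference 2.85 ± 0.16 SE, adjusted p = 1.4e-07). HIST2H3D fell in Jurkat and rose in Molt-4 (difference 2.60 ± 0.23 SE, adjusted p = 6.6e-06). With a pseudocount of 0.1, 11 core histones were higher. Among 10 linker and replication-independent histones (60% called), 2 were higher and 4 lower. H2AFX, the damage-signalling variant, rose from 128, 133 and 120.2 to 323, 327 and 333 in Jurkat and from 196, 189 and 186 to 255, 268 and 269 in Molt-4 (difference -0.89 ± 0.07 SE, adjusted p = 1.4e-06). HIST1H1C, the linker histone H1.2, rose more in Jurkat (difference -0.65 ± 0.11 SE, adjusted p = 0.0011). Lower core histone genes went from 1 to 2 without treated Jurkat replicate 3. Lower linker and variant histone genes went from 4 to 2 without treated Jurkat replicate 3 or treated Molt-4 replicate 3.

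Of the genes for the drug's named targets, 1 had a called difference. HDAC1, HDAC2 and HDAC10 had differences of 0.11 ± 0.09 (SE; adjusted p = 0.41), -0.19 ± 0.07 (SE; adjusted p = 0.054) and -0.24 ± 0.17 (SE; adjusted p = 0.32), none of them called, with unadjusted 95% intervals of -0.09 to 0.31, -0.34 to -0.04 and -0.60 to 0.13. The HDAC2 difference was called as lower under all 3 other scalings (adjusted p = 0.0052 with equal totals without 7SL RNA, 0.0089 after quantile normalization and 0.032 with median-of-ratios scaling), with array weights (adjusted p = 0.028) and without replicate 1 of untreated or of treated Molt-4 (adjusted p = 0.021 and 0.049). The HDAC1 difference was called as higher, at 0.22 (adjusted p = 0.022), when replicate 3 of both untreated groups was left out. HDAC3 rose more in Jurkat, from 51.1, 51.4 and 48.6 to 69.9, 67.4 and 69.2 beside 81.98, 75.2 and 75.8 to 86.1, 85.8 and 90.04 in Molt-4 (difference -0.28 ± 0.07 SE, adjusted p = 0.011). HDAC5, a class IIa deacetylase outside the drug's named targets, rose more in Molt-4, from 9.76, 9.13 and 8.51 to 38.4, 39.6 and 39.3 beside 9.71, 9.45 and 9.72 to 18.3, 16.9 and 18.6 (difference 1.15 ± 0.10 SE, adjusted p = 3.5e-06).

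Of 23 BH3-only, effector and death receptor genes, 5 were higher and 3 lower, 34.8% called and so near the 31.9% over all genes. Of 9 survival genes (66.7% called), 4 were higher and 2 lower. The death receptors split: TNFRSF10A rose in Jurkat from 0.16, 0.23 and 0.65 to 3.60, 3.77 and 3 and had 12.8, 12.8 and 10.4 in untreated and 10.3, 10.8 and 13.6 in treated Molt-4 (difference -1.79 ± 0.21 SE, adjusted p = 5.9e-05), whereas FAS (difference 1.06 ± 0.16 SE, adjusted p = 0.00043) and TNFRSF10B (difference 0.73 ± 0.16 SE, adjusted p = 0.0047) rose more in Molt-4. BCL2L1, which encodes the survival protein BCL-XL, fell in Jurkat from 53.5, 52.6 and 55.5 to 34.2, 35.5 and 37.9 and rose in Molt-4 from 78.8, 82.4 and 77.05 to 108, 116 and 112 (difference 1.06 ± 0.08 SE, adjusted p = 1e-06). CFLAR, an inhibitor of caspase-8, moved likewise (difference 1.12 ± 0.16 SE, adjusted p = 0.00025). MCL1, another BCL2 relative, rose in Jurkat from 65.5, 67.6 and 53.6 to 87.99, 88.5 and 90.2 and had 76.5, 70.4 and 75.9 in untreated and 71.4, 76.1 and 73.4 in treated Molt-4 (difference -0.53 ± 0.11 SE, adjusted p = 0.0029). Lower survival genes went from 2 to 1 without untreated Jurkat replicate 1 or 2, treated Jurkat replicate 2, untreated Molt-4 replicate 2 or 3 or treated Molt-4 replicate 2 or 3.

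Lipid synthesis genes were more often lower. Of 27 cholesterol and fatty acid genes (40.7% called, beside 31.9% over all genes), 1 was higher and 10 lower, with a median difference of -0.22. CYP51A1, the lanosterol demethylase, rose in Jurkat from 1.61, 1.42 and 1.07 to 3.12, 4.43 and 2.88 and fell in Molt-4 from 35.5, 35.6 and 36.3 to 23.1, 20.03 and 20.4 (difference -1.64 ± 0.18 SE, adjusted p = 3.2e-05). SCD, a fatty acid desaturase, had the same opposite form (difference -0.97 ± 0.13 SE, adjusted p = 0.00015). LSS, lanosterol synthase, fell in Molt-4 (difference -0.93 ± 0.20 SE, adjusted p = 0.0036). Of 24 glycolysis genes (50% called), 6 were higher and 6 lower. SLC2A1, the main glucose transporter, fell in Jurkat from 78.3, 79.9 and 54.3 to 42.04, 38.3 and 41.99 and rose in Molt-4 from 38.2, 44.8 and 44.9 to 77.3, 76.7 and 79.4 (difference 1.62 ± 0.17 SE, adjusted p = 2.7e-05), while SLC2A3, another transporter, rose more in Jurkat (difference -0.85 ± 0.10 SE, adjusted p = 5.8e-05). TXNIP, a glucose-responsive inhibitor of glucose uptake, rose in Molt-4 from 17.5, 17.4 and 16.8 to 60.3, 57.9 and 58.2 and stayed at or under 0.13 in Jurkat (difference 1.70 ± 0.11 SE, adjusted p = 6.3e-07). Of 29 ATF4 targets and aminoacyl-tRNA synthetases (17.2% called), 5 were higher, 3 after quantile normalization, and 0 lower. Untreated Jurkat replicate 3 stood apart here, and its AARS value of 178 stood beside 89.7 and 97.9 in the other 2. The AARS difference was 0.98 ± 0.26 (SE; adjusted p = 0.013) with that library and 0.68 without it. Of 9 metallothionein and zinc genes (44.4% called), 3 were higher and 1 lower, and 1 of the higher reached the filter only with the treated Molt-4 libraries. MT1A was that gene, so that its higher call was built in. It was listed at 0 in Jurkat and rose to 4.31, 4.57 and 3.94 in Molt-4 (difference 2.21 ± 0.19 SE, adjusted p = 5.6e-06). Higher lipid synthesis genes went from 1 to 0 without untreated Jurkat replicate 1 or 2, treated Jurkat replicate 3, untreated Molt-4 replicate 1 or 2 or treated Molt-4 replicate 1 or 2, to 2 without treated Jurkat replicate 1 and to 6 without untreated Jurkat replicate 3. Higher glycolysis genes went from 6 to 12 without untreated Jurkat replicate 3. Higher amino acid stress genes went from 5 to 3 without treated Jurkat replicate 1, 2 or 3, untreated Molt-4 replicate 1 or 2 or treated Molt-4 replicate 1, 2 or 3. Lower amino acid stress genes went from 0 to 7 without untreated Jurkat replicate 3. Lower metallothionein genes went from 1 to 0 without treated Jurkat replicate 1 or 3, untreated Molt-4 replicate 2 or 3 or treated Molt-4 replicate 2 or 3 and to 2 without untreated Jurkat replicate 3.

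Of 33 tested neuronal genes, 28 rose in Jurkat and 26 in Molt-4, where 30.9% and 35.4% of all genes tested rose. The differences divided, 9 higher and 11 lower (60.6% called, beside 31.9% over all genes). SCG3, a secretory granule protein, rose from 3.47, 3.53 and 3.88 to 42.6, 42.01 and 43.9 in Molt-4 and stayed at or under 0.05 in Jurkat (difference 3.28 ± 0.11 SE, adjusted p = 4.3e-09). SYP, the synaptic vesicle protein synaptophysin, rose in both lines and more in Molt-4, from 3.19, 2.65 and 3.20 to 36.3, 38.2 and 39.8 beside 2.12, 2.15 and 1.92 to 6.70, 8.24 and 7.34 (difference 1.83 ± 0.13 SE, adjusted p = 1.2e-06). TUBB2B, a neuronal tubulin, did the same (difference 1.86 ± 0.17 SE, adjusted p = 6.9e-06). L1CAM, a neural adhesion molecule, rose in both lines, from at most 0.13 to 15.3, 13.9 and 12.5 in Jurkat and from at most 0.39 to 14.7, 14.8 and 14.3 in Molt-4, with a difference of -0.14 ± 0.14 (SE; adjusted p = 0.5) and a 95% interval of -0.45 to 0.17, and -0.87 (adjusted p = 0.08) with a pseudocount of 0.1.

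**Figure D5:**
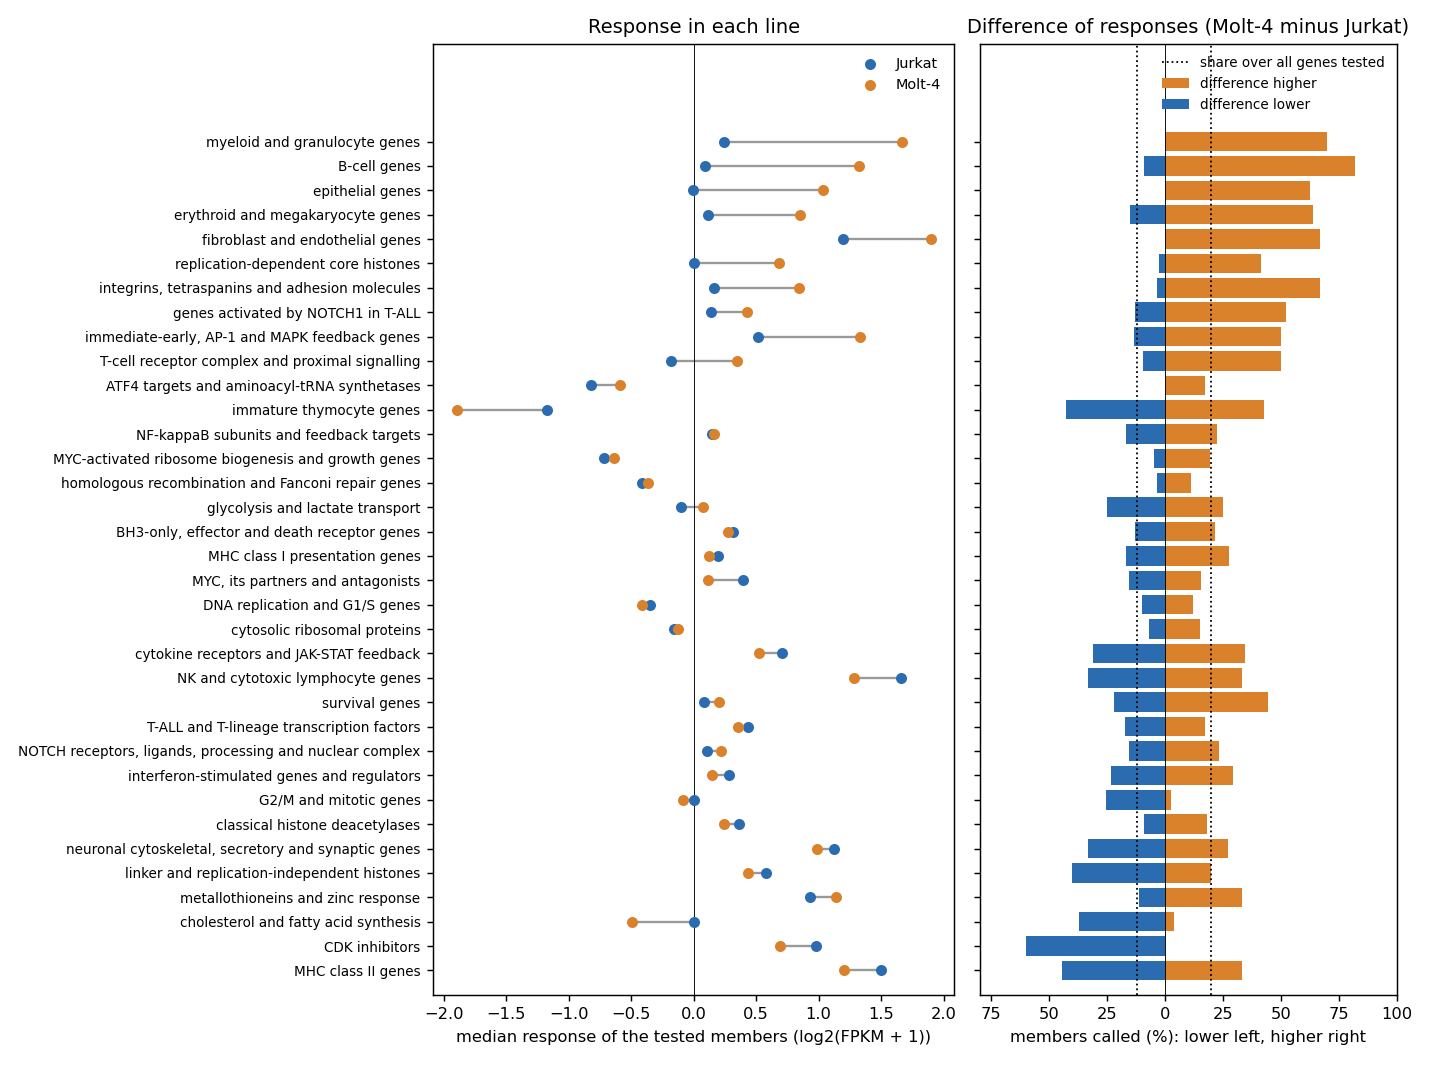
Left, the median response of the tested members of each of 35 gene lists in Jurkat and Molt-4, in log2(FPKM + 1). Right, the share of tested members with a called lower (to the left) or higher (to the right) difference, with dotted lines at the shares over all genes tested, 12.1% and 19.8%; the B-cell, myeloid, integrin, stromal and erythroid lists reach furthest to the right, all but the integrin list holding members that passed the filter only with treated Molt-4, and the CDK inhibitor, MHC class II and thymocyte lists furthest to the left.

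Other genes rose or fell strongly in both lines, with an unadjusted 95% interval of the difference within 0.5 of 0. MAL, a T-cell raft protein, fell from 48.1, 53.9 and 49.6 to 6.42, 5.94 and 6.95 in Jurkat and from 68.4, 68.2 and 66.97 to 10.1, 9.75 and 9.07 in Molt-4 (difference 0.10 ± 0.10 SE, adjusted p = 0.49; 95% interval -0.12 to 0.32). MZB1, an endoplasmic reticulum chaperone of lymphocytes, fell from 310.5, 325 and 299 to 45.04, 46.4 and 43.98 and from 162, 158 and 158 to 26.04, 23.8 and 22.7 (difference 0.09 ± 0.08 SE, adjusted p = 0.44; 95% interval -0.08 to 0.26). NDST3, a heparan sulfate enzyme, fell with a difference of -0.24 ± 0.12 (SE; adjusted p = 0.15), which was called after quantile normalization (-0.55, adjusted p = 0.0067). TMEM59L and MEIS3, a homeobox gene, rose from no more than 0.67 and 0.24 FPKM to 14.8 or more and 10.6 or more in every treated library, with differences of -0.16 and 0.04 (adjusted p = 0.44 and 0.84). SLC7A8, an amino acid transporter, rose by 3.12 in Jurkat and 3.22 in Molt-4. The likeness of these 3 genes depended on the pseudocount: with 0.1, the differences were 0.99, -1.06 and -1.50 (adjusted p = 0.022, 0.015 and 0.02). That of SLC7A8 was also called after quantile normalization (0.47, adjusted p = 0.048).

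A last set moved in a single line with a narrow interval around 0 in the other, within 0.25 on either side. CXCR4, the chemokine receptor that homes T cells to marrow, rose in Jurkat from 139.7, 140.0 and 152 to 315, 307 and 313 and had 102, 93.1 and 98.8 in untreated and 104, 103 and 108 in treated Molt-4 (difference -1.01 ± 0.07 SE, adjusted p = 7.7e-07). SH3BP5, an inhibitor of BTK, rose in Jurkat in the same way (difference -1.74 ± 0.09 SE, adjusted p = 1.2e-07). NME4, a mitochondrial nucleoside diphosphate kinase, fell in Jurkat from 205, 236 and 205 to 56.1, 59.3 and 67.7 and had 172, 163 and 176 in untreated and 173, 181 and 189 in treated Molt-4, with overlapping groups (difference 1.89 ± 0.11 SE, adjusted p = 1.6e-07). SLA2, an adaptor that dampens T-cell receptor signals, fell in Jurkat from 32.01, 30.5 and 27.6 to 11.8, 11.7 and 12.3 beside 5.32, 4.66 and 5.78 and 5.25, 4.97 and 5.22 in Molt-4 (difference 1.24 ± 0.12 SE, adjusted p = 1.2e-05). PKDCC, a secreted kinase, was listed at 0 in all Jurkat libraries and rose to 12.4, 13.4 and 13.2 in Molt-4 (difference 3.50 ± 0.13 SE, adjusted p = 7.9e-09). PKDCC reached the filter only with the treated Molt-4 libraries, so that its higher call was built in. ACTL8, an actin-like gene of the testis, fell in Molt-4 from 12.1, 12.1 and 10.4 to 3.95, 3.96 and 4.22 and was at or under 0.04 in Jurkat (difference -1.29 ± 0.12 SE, adjusted p = 8.4e-06). Among genes that moved in both lines, SGK1, a kinase of salt and survival signalling, rose to like levels of 40.2, 41.2 and 45.2 and 36.3, 44.1 and 41.4 from 1.05, 0.74 and 1.01 in Jurkat and 8.43, 9.10 and 7.70 in Molt-4 (difference -2.34 ± 0.14 SE, adjusted p = 2.3e-07). TNFRSF4, the co-stimulatory receptor OX40, fell in Jurkat from 20.6, 16.3 and 9.72 to 0.50, 0.83 and 0.32 and in Molt-4 from 0.75, 0.91 and 1.23 to 0, 0.04 and 0.04 (difference 2.44 ± 0.30 SE, adjusted p = 8.1e-05). TNFRSF4 reached the filter only with the untreated Jurkat libraries, so that its higher call was built in. CPNE7, a calcium-dependent membrane-binding protein, fell more in Jurkat (difference 1.81 ± 0.20 SE, adjusted p = 3.3e-05).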

How the data were processed

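RNA of 12 libraries, 3 in each of 4 groups, was measured by sequencing. The values are FPKM per gene as deposited by the authors; STAR, HTSeq, DESeq2 and the build hg19 were used by the authors, as the submitters' processing notes list without versions, and how the FPKM were made is not given in the sources used here. Whole reads could not be recovered from the FPKM (47.1% to 62.5% of low values were within 0.15 of a whole multiple), which leaves the sequencing depth unknown, and counting intervals are not given.

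Genes reaching an FPKM of 1 in 3 or more libraries were fitted with limma 3.58.1 in R 4.3.3 on log2(FPKM + 1), as 4 group means with a trended empirical Bayes prior. The contrast was the Molt-4 response minus the Jurkat response, with 8 residual degrees of freedom and Benjamini-Hochberg adjustment over all genes tested. Each line's response came from the same fit. On simulated data for this contrast over 13840 genes, the fit recovered 31 of 40 genes with a difference of 1, 15 of 40 with 0.5, 30 of 40 with -1, 16 of 40 with -0.5 and 39 of 40 with -2, and called 9 of 10467 unchanged genes. The noise was normally distributed, and these genes all had a mean level above the filter on low values. The counts therefore do not cover genes of low level.

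The comparison, the 35 gene lists and the naming rule were chosen with earlier results of these data known. The rule named a fixed set of NOTCH, MYC and deacetylase genes with CDKN1A; the 10 highest and 10 lowest differences at a mean FPKM of at least 5; 8 opposite responses in each direction; 3 genes of each same-direction class; 4 rises and 4 falls with an interval of the difference within 0.5; up to 4 genes of each class with a flat line; and up to 4 called members of each list. The text uses most of them; some are not reported here. ADA, AHSP, ALAS2, CD1A, CD1C, CD1D, CD1E, CD247, DNTT, GATA1, HBG1, HBG2, HBZ, HEY2, HEYL, IER3, IGLL1, JUNB, KLF1, LCP2, LEF1, RHAG and SIT1 were chosen after their values were seen, as were PRTN3 and the markers named for being near 0. Gene symbols matched the reference tables at 23122 current and 1124 older symbols, and promoters come from RefSeq, GRCh38.p14, a build other than that of the values. The alternatives were other pseudocounts, filters, scalings and weights, a replicate block, a minimum size of difference and leaving out libraries.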

Additional observations from a re-analysis of the deposited data

Results flagged for a closer look

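The treatment effect itself differed between the lines at the genes called above, by a direct test of the difference in the limma fit. The clearest form is a called rise in one line and a called fall in the other, at 261 genes that rose in Molt-4 and fell in Jurkat and 133 with the reverse. Among the former, the differences of responses named by rule were 5.89 for CXorf49B, 3.69 for C11orf74, 3.48 for SMAD6, 3.33 for CTSG, 3.09 for DBNDD2, 3.07 for CD79A, 2.52 for NPM2 and 2.21 for RASGRP2. Among the latter they were -1.92 for PTP4A3, -1.41 for PLCD1, -1.33 for SLX1A, -1.22 for TMEM99, -1.04 for UBXN8, -1.03 for COMMD9, -1 for CDH2 and -1 for ASB16-AS1. Every other gene with a called difference meets the same criterion and has its value where it is described. Groups of 3 libraries are too small for a test of single outlying libraries.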

How the results depend on the processing

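Of 173 genes named, 159 had a called difference, and 109 of these were called with the same sign under all 23 alternatives. With those that could not be tested under each, 116 were called with the same sign wherever they were tested. The calls over all genes that were kept with the same sign ranged from 83.8% to 93.5% when 1 library was left out, and were 84.4% after quantile normalization (26 reversed), 85.8% with a pseudocount of 0.1 (62 reversed) and 88.6% with equal totals without 7SL RNA. With 1 library left out, higher differences numbered 2418 to 2921 and lower ones 1381 to 2020. The opposite responses numbered 224 to 294 (up in Molt-4) and 97 to 170 (down in Molt-4), and same-direction ones 644 to 833 (larger in Molt-4) and 587 to 1120 (larger in Jurkat). Differences with a response called in a single line numbered 1249 to 1468 (Molt-4) and 803 to 1031 (Jurkat), and responses that were alike 1960 to 2655. After quantile normalization 2678 differences were lower and 242 responses were down in Molt-4 and up in Jurkat; the cause was not tested. Requiring a difference of at least 1 as well left, by construction, 928 higher and 274 lower differences, 143 and 35 opposite responses, 277 and 116 same-direction responses larger in Molt-4 and in Jurkat, and 458 and 170 called in Molt-4 alone and in Jurkat alone.

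With the replicate block, higher differences numbered 2630 and lower ones 1554, opposite responses 261 and 125, and alike responses 2245; it ended no call of a named gene. The replicate numbers do not pair the libraries: deviations from the group means correlated at -0.086 to 0.041 for the same number in 2 groups (18 pairs) and at -0.065 to 0.079 for other numbers.

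The sign of an uncalled or small difference turned for TMEM59L (0.99 with a pseudocount of 0.1, 0.13 after quantile normalization), MEIS3 (-1.06 with a pseudocount of 0.1, -0.16 with equal totals, and -0.0054 to 0.0862 with 1 library left out), SLC7A8 (-1.50, -0.26 with equal totals, and -0.0493 to 0.174 with 1 library left out), L1CAM (0.16 after quantile normalization) and GATA1 (-0.0565 with a pseudocount of 0.1). PTCRA was also not called without a filter on low values or under 2 of the scalings. The depth is unknown, so its part in differences of genes near an FPKM of 1 was not tested.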

Other observations

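Of 1202 genes with a called difference of at least 1, the gap between the lines was narrower after treatment at 537 (44.7%), against 46.6% of all genes tested. It was narrower at 385 of the 928 higher (41.5%) and at 152 of the 274 lower ones (55.5%). Of those 928, 23 (2.48%) had a mean FPKM under 1 in both Molt-4 groups, and of the 274 lower ones, 56 (20.4%) did.

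Promoters of the genes that rose in Molt-4 and fell in Jurkat held the AP-1 motif TGACTCA, on either strand, at 14 of 194 (7.22%), against 3% of the promoters of genes tested. Those of the reverse pattern held the GC box GGGCGG at 87 of 107 (81.3%), against 69.5% of those of genes tested. These shares are descriptions with no test, chosen among 9 motifs after their values were seen.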
